A study of Homo sapiens with 16 samples.

Results

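The RNAs described here are the long transcripts that carry small RNAs inside them: 29 hosts of small nucleolar RNAs (snoRNAs; 28 SNHG genes and GAS5) and 74 hosts of microRNAs (symbols that begin with MIR and end with HG), together with 5 other long noncoding RNAs, MALAT1, NEAT1, UCA1, H19 and MEG3. They were picked by symbol, with earlier results of these data known, and make up 108 of the 61806 genes of the deposited table. They were measured by poly(A) RNA sequencing of LX-2, an immortalised human hepatic stellate cell line, in 4 groups of 4 biological replicates. All cells were kept in a reduced-serum endothelial growth medium. They were grown for 24 h and then treated for 2 h. Wild-type cells received the PBS vehicle (WT) or 100 ng/mL of TWEAK, a ligand of the TNF family (the TWEAK group). The other 2 groups were CRISPR/Cas9 knockouts given PBS: cells without the alpha isoform of Fn14 (Fn14alpha knockout) and cells without total Fn14 (Fn14 knockout). Fn14, the product of TNFRSF12A, is the receptor of TWEAK. No label says if a knockout line grew from a single cell, so the deletion and the history of each line cannot be told apart.

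Many small RNAs are cut out of a longer transcript. SnoRNAs, which guide the chemical modification of ribosomal RNA, lie in introns of their hosts and are released after splicing. The spliced host RNA itself is often short-lived. MicroRNAs are cut as hairpins from a primary transcript by Drosha and then by Dicer, and the mature strand pairs with messenger RNAs through its seed, bases 2 to 8. A poly(A) library of fragmented RNA reads the spliced host and not the mature small RNA. By symbol, 123 microRNA genes lie inside a host on the same strand (MIR770, inside both MEG3 and MIR493HG, is counted a single time). Of these, 104 had no count in any of the 16 libraries, and the highest sum over all libraries was 23 counts (MIR221). Among 147 snoRNA genes counted in the same way, 126 had no count, and the highest was SNORA71B, inside SNHG17, with 246. The values below are therefore levels of the hosts and say nothing of the amount of each small RNA.

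Mature sequences inside 6 microRNA hosts, the 4 called with TWEAK and 2 others called in both knockouts, are shown for their seeds, printed in capitals, 5′ to 3′ (RefSeq, GRCh38.p14). Mature sequences were found for 28 of the 30 microRNA hosts that could be tested.
hsa-miR-34a-5p (inside MIR34AHG): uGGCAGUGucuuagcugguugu
hsa-miR-146a-5p (inside MIR3142HG): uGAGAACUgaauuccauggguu
hsa-miR-221-3p (inside MIR222HG): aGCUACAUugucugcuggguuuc
hsa-miR-222-3p (inside MIR222HG): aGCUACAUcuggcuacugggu
hsa-miR-22-3p (inside MIR22HG): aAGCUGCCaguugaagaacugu
hsa-miR-503-5p (inside MIR503HG): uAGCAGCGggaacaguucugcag
hsa-miR-23a-3p (inside MIR23AHG): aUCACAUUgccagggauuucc
The pair in MIR222HG has the same seed, GCUACAU, although the rest of each strand differs. A wider group shares the let-7 seed GAGGUAG, which 7 mature microRNAs in 6 tested hosts carry; a member of each host is shown here.
hsa-let-7a-5p (inside MIR100HG, MIRLET7A1HG and MIRLET7BHG): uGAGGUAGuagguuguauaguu
hsa-let-7b-5p (inside MIRLET7BHG): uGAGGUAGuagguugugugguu
hsa-let-7i-5p (inside MIRLET7IHG): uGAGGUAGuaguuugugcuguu
hsa-miR-4458 (inside MIR4458HG): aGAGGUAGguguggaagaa
hsa-miR-4500 (inside MIR4500HG): uGAGGUAGuaguuucuu

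Libraries held 13335919 to 16888606 counts. TNFRSF12A stood at 128 ± 6.29 FPKM (fragments per kilobase of exon, scaled to the library total; mean ± SD, n = 4) in WT, 130 ± 7.07 with TWEAK, 59.3 ± 6.43 without Fn14alpha and 33.6 ± 2.77 without Fn14. Its RNA was thus lower in both knockouts and not absent. The 7 markers of the stellate line summed to 614 to 661 FPKM in WT, 816 to 894 with TWEAK, 479 to 488 without Fn14alpha and 829 to 915 without Fn14. Of these, 1 rose with TWEAK, 1 rose and 5 fell without Fn14alpha, and 4 rose and 2 fell without Fn14. Over all genes tested, 6.87%, 42.2% and 52.9% were called in the same comparisons. The 5 hepatocyte markers summed to 2.25 to 2.65 FPKM in WT, 2.55 to 3.08 with TWEAK, 1.02 to 1.38 without Fn14alpha and 0.26 to 0.72 without Fn14; SERPINA1, the only one tested, fell in both knockouts (-1.32 and -2.38). The 5 endothelial markers summed to 0.03 to 0.13 FPKM. The hepatocyte markers APOB and TTR were at 0 in every group. The 5 markers of quiescent stellate cells summed to 1.25 to 1.81 FPKM in WT and 30.1 to 34.9 in the Fn14 knockout, where NGFR, the only one with enough counts to be tested, made up nearly all of it. The 4 cholangiocyte markers summed to 5.19 to 6.28 and 11.3 to 12.8 in the same groups. The part of these markers in the results was not tested. The mean log2 CPM (the count scaled to library size) of 85 ribosomal protein genes was 8.65 in WT replicate 4 and 8.68 in Fn14 knockout replicate 1, and 8.13 to 8.39 in the other libraries. The labels call the replicates biological and say no more, and the p-values carry only the spread among these libraries, part of which may be technical.

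Of the 108 RNAs, 59 had enough counts to be tested: 25 snoRNA hosts, 30 microRNA hosts and 4 of the other long RNAs. Their totals over the 16 libraries ran from 120 to 59718 counts. Another 36 had 1 to 103 counts in all and were left out by the filter on low counts, and 13 had no count in any library. A mean of at least 1 FPKM in a group was reached by 42 RNAs, of which 23 were snoRNA hosts, 15 microRNA hosts and 4 other long RNAs. SnoRNA hosts held the top of the range. SNHG1, host of a cluster of box C/D snoRNAs, was at 34.5 ± 2.06 FPKM in WT, SNHG29 at 28.2 ± 1.82, SNHG32 at 25.2 ± 2.21, GAS5 at 18.4 ± 2.02 and SNHG6 at 14.2 ± 2.50. MIR222HG led the microRNA hosts at 11.8 ± 0.91 FPKM, and SNHG3, NEAT1, SNHG19 and MIR503HG completed the 10 highest, at 9.78 ± 0.79, 6.95 ± 0.92, 8.35 ± 1.68 and 7.82 ± 0.63 FPKM in WT.

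**Figure D1:**
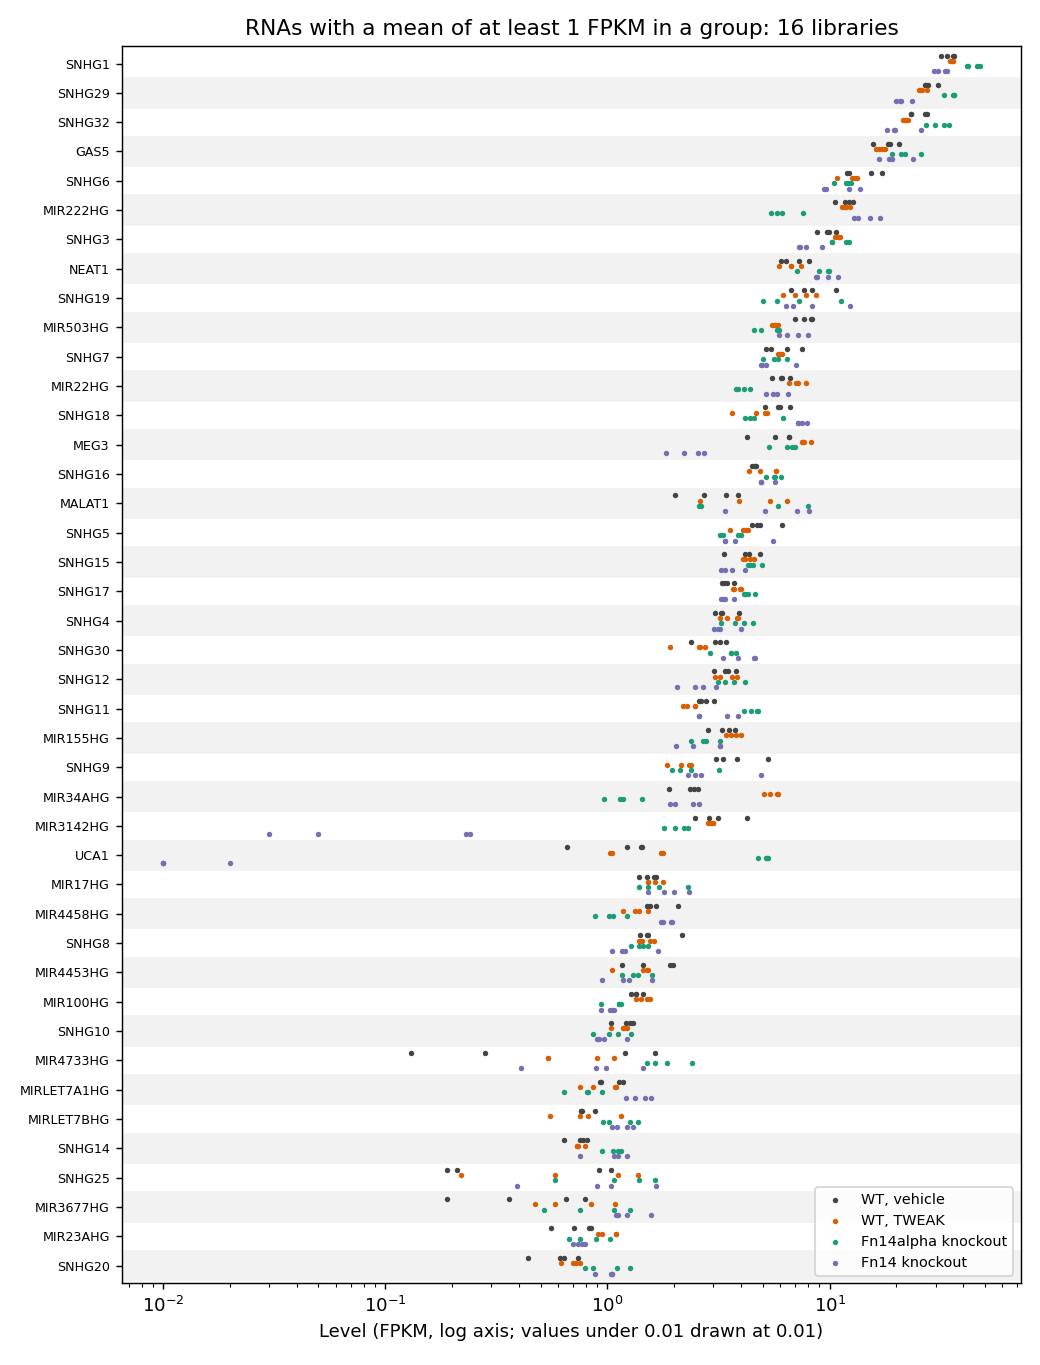
Level in FPKM (log axis) of the 42 RNAs whose mean reached 1 FPKM in some group, ordered by their mean over all libraries. Each point is a library, coloured by group. SnoRNA hosts fill most of the upper rows, and UCA1 and MIR3142HG have Fn14 knockout points far left of the other groups.

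H19, the imprinted host of miR-675, was not detected: all 16 libraries had 0 counts. The same held for MIR200CHG, MIR217HG, MIR325HG, MIR548A1HG, MIR670HG, MIR3663HG, MIR3976HG, MIR4307HG, MIR4432HG, MIR4713HG, MIR5689HG and MIR7515HG. MIR122HG, which carries the most abundant microRNA of hepatocytes, had 1 count in all, and MIR223HG and MIR142HG, whose microRNAs are known from blood cells, had 2 and 15. The 4 untested snoRNA hosts were SNHG31 with 96 counts, SNHG25 with 74, SNHG27 with 6 and SNHG28 with 4. Of the untested microRNA hosts, MIR497HG had 103 counts, MIR4280HG 76, MIR181A1HG 72, MIR99AHG 59, MIR4527HG 58 and MIR302CHG 52. MIR3659HG had 45, MIR130AHG 42, MIR181A2HG 41, MIR493HG 39, MIR205HG 31, MIR4300HG 26, MIR133A1HG 23 and MIR378D2HG 21. Between 11 and 20 counts were found for MIR663AHG (20), MIR3147HG (20), MIR34BHG (16), MIR3681HG (12) and MIR219A2HG (11). The rest had single-digit sums: MIR646HG and MIR2052HG 7, MIR583HG 6, MIR4422HG and MIR3945HG 5, MIR3150BHG 3, MIR202HG, MIR4290HG and MIR2117HG 2, and MIR365BHG 1.

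After 2 h of TWEAK, 5 of the 59 tested RNAs were called (8.5%), close to the share over all genes (6.87%). Of the 59 tested, 4 rose and 1 fell (edgeR's quasi-likelihood test, false discovery rate 0.05), and 54 did not pass. Over all 16029 genes tested, 6.87% were called, 4.82% as higher and 2.05% as lower. The median log2 fold change was 0.00 over the 59 RNAs and -0.01 over all genes. With library totals in place of TMM scaling, 3 RNAs were called higher and 3 lower, and over all genes the share of calls that were higher was 43.9% in place of 70.2%. The 5 called RNAs were 4 microRNA hosts and MEG3.

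MIR34AHG (ENSG00000228526, chr1:9148011-9198906, minus strand, positions as deposited), host of miR-34a, a microRNA known as a p53 target that restrains the cell cycle, had the largest rise. Its levels were 2.45, 1.9, 2.57 and 2.36 FPKM in the WT libraries and 5.82, 5.05, 5.86 and 5.42 with TWEAK. The groups were far apart, with every TWEAK library above every WT library. The log2 fold change was 1.32 ± 0.11 (SE; edgeR adjusted p = 4.19e-09). In the knockouts the same RNA stood at 1.14, 0.97, 1.17 and 1.43 FPKM without Fn14alpha and at 2.01, 2.44, 1.91 and 2.58 without Fn14. It fell by 1.01 on the log2 scale in the Fn14alpha knockout (edgeR adjusted p = 3.50e-07, SE 0.12). In the Fn14 knockout its range lay across that of WT, and it was higher there than in the Fn14alpha knockout by 1.07 ± 0.12 (edgeR adjusted p = 5.60e-08).

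MIR503HG (ENSG00000223749, chrX:134543119-134546642, minus strand), a host that carries miR-503, was the RNA that fell with TWEAK. It had 8.33, 6.98, 8.26 and 7.71 FPKM in WT and 5.64, 5.83, 5.69 and 5.52 with TWEAK, so that the groups did not overlap. The log2 fold change was -0.40 ± 0.10 (edgeR adjusted p = 0.0114). The Fn14alpha knockout had 4.92, 5.82, 4.55 and 5.94 FPKM, also below every WT library, a log2 fold change of -0.59 ± 0.10 (edgeR adjusted p = 3.90e-05). Here the surrounding genes were lower too. The median log2 fold change of the up to 50 tested genes on each side of MIR503HG was -0.88 in the Fn14alpha knockout and -0.04 with TWEAK. Relative to that median the RNA was higher by 0.29 in the Fn14alpha knockout (edgeR adjusted p = 0.0301). The Fn14 knockout had 6.44, 8.01, 5.95 and 7.19 FPKM, which was higher than the Fn14alpha knockout by 0.53 ± 0.10 (edgeR adjusted p = 8.18e-05), with neighbours higher by 0.94.

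MIR23AHG, host of miR-23a, miR-27a and miR-24, had 0.83, 0.71, 0.84 and 0.56 FPKM in WT and 0.95, 0.91, 1.09 and 1.09 with TWEAK. It rose by 0.52 ± 0.13 on the log2 scale (edgeR adjusted p = 0.0105), and limma on log2(FPKM + 1) or log2(FPKM + 0.1) did not call it (adjusted p = 0.0633 and 0.0785). In the GENCODE v29 annotation, 2286 exonic bases of this host lie antisense to ZSWIM4, which itself rose by 1.24 with TWEAK (edgeR adjusted p = 1.55e-05). The strand setting of the counting was not recorded in the labels, so reads of the pair cannot be told apart. Neither knockout differed from WT in MIR23AHG beyond the spread, at 0.67 to 1.03 FPKM without Fn14alpha and 0.70 to 0.79 without Fn14 (edgeR adjusted p = 0.355 and 0.359). MIR22HG, a host whose spliced RNA is known to respond to many stresses, had 6.04, 5.51, 6.13 and 6.63 FPKM in WT and 7.83, 7.05, 7.21 and 6.59 with TWEAK. The ranges overlapped in the lowest TWEAK library. Its log2 fold change of 0.30 ± 0.09 passed narrowly (edgeR adjusted p = 0.0427) and was not called in 15 of 26 other settings, the replicate block among them (adjusted p = 0.0640).

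MEG3 (ENSG00000214548, chr14:100779410-100861031, plus strand), an imprinted long RNA of a cluster of microRNAs and snoRNAs, had 6.57, 5.69, 6.60 and 4.24 FPKM in WT and 7.52, 7.57, 8.23 and 7.69 with TWEAK. All TWEAK libraries were above all WT libraries, with WT replicate 4 lowest. It rose by 0.48 ± 0.12 (edgeR adjusted p = 0.0175), and the call was lost without TWEAK replicate 3 (adjusted p = 0.0593) and with limma on log2(FPKM + 0.1) (adjusted p = 0.0595). MIR155HG, whose microRNA is a known NF-κB target, had 2.83 to 3.75 FPKM in WT and 3.41 to 3.98 with TWEAK and did not pass.

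The 5 RNAs called with TWEAK were searched for a shortened form of the motif bound by NF-κB, the transcription factor that Fn14 is known to activate. The letters GGGNNTTCC and GGNNTTTCC were looked for on either strand, from 250 bases before to 50 after the start in RefSeq (GRCh38.p14). At least one of these overlapping forms was in 10.8% of 35116 promoters (6.58% and 6.26% each), and in those of 2 of the 5 RNAs. Of the 51 tested RNAs with a promoter sequence, called or not, 11 held a form, these 2 among them. Whether the motif goes with the calls was not tested. The matches, in capitals with 10 bases on each side, are printed to show where they lie.
MIR34AHG, chr1:9182523-9182531, minus strand, match on the opposite strand: ctctcgctggGGAAACGCCagcccaggcg
MIR503HG, chrX:134546774-134546782, minus strand: ggggtggggcGGGGCTTCCttcagtcatc
The first belongs to an RNA that rose and the second to the one that fell. A match describes letters only.

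None of the 25 snoRNA hosts was called with TWEAK by edgeR, beside 6.87% of all genes. There were 5 at an unadjusted p under 0.05, DESeq2 called SNHG17, and limma called SNHG9 with either pseudocount. SNHG9 was at 3.30, 3.85, 3.09 and 5.26 FPKM in WT and 2.15, 2.37, 1.85 and 2.32 with TWEAK, without overlap (edgeR adjusted p = 0.0726). GAS5 among the snoRNA hosts differed by -0.06 ± 0.10 (edgeR adjusted p = 0.797). Of the other long RNAs, MEG3 was called and 3 were not: NEAT1 differed by 0.00 ± 0.10 (edgeR adjusted p = 0.996), UCA1 by 0.31 ± 0.20 (0.408) and MALAT1 by 0.67 ± 0.42 (0.408).

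**Figure D2:**
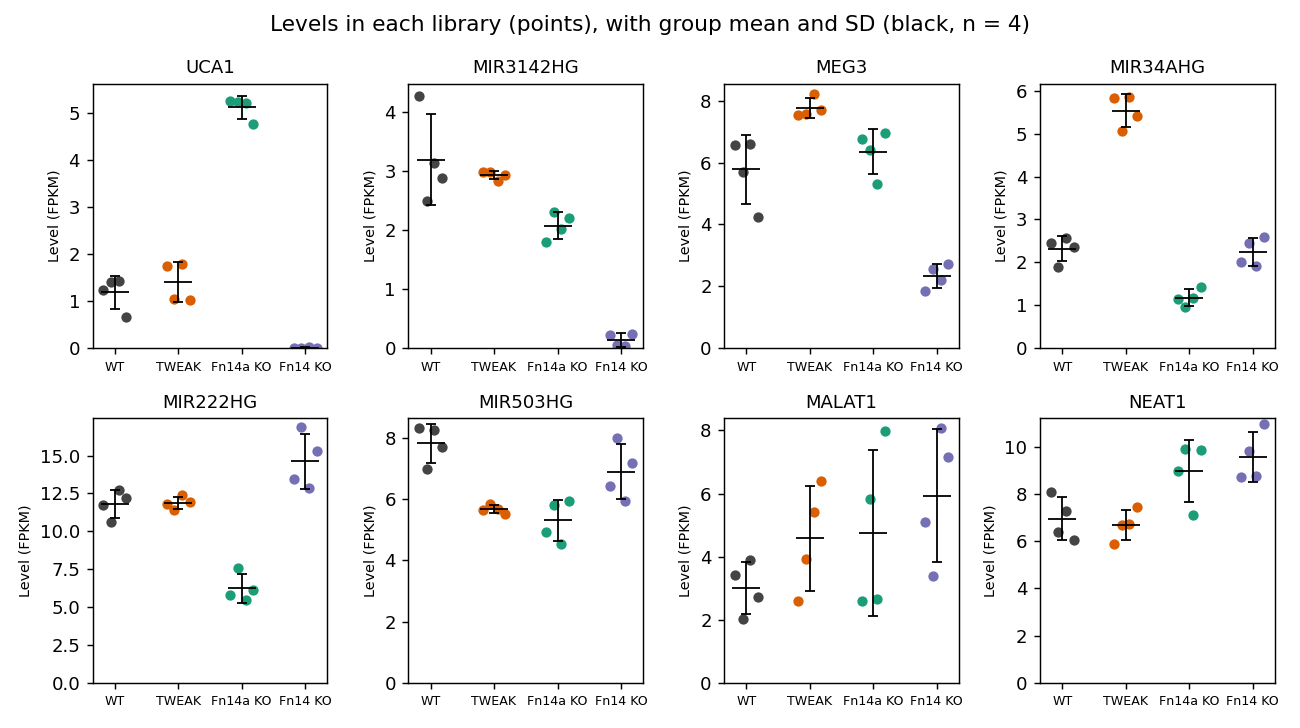
Levels in FPKM of 8 RNAs in each library (points), with the group mean and SD in black (n = 4); Fn14a KO and Fn14 KO are the knockouts of Fn14alpha and of Fn14. MIR34AHG is high in the 4 TWEAK libraries and low in the 4 Fn14alpha knockout libraries, whereas UCA1, MIR3142HG and MEG3 are lowest in the Fn14 knockout.

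In the knockouts many more were called, both of these RNAs and of all genes. In the Fn14alpha knockout 14 of the 59 RNAs were higher than in WT and 15 lower, beside 42.2% of all genes called, 20.0% higher and 22.2% lower. Without Fn14, 16 were higher and 10 lower, beside 52.9% of all genes, 26.6% higher and 26.3% lower. Between the knockouts (Fn14 minus Fn14alpha) 12 were higher and 14 lower, beside 59.2% of all genes, 30.7% higher and 28.5% lower. The median log2 fold changes of the 59 were 0.05, 0.04 and 0.06, against 0.01, -0.01 and -0.00 over all genes. The shares of the 59 that were called were 49.2%, 44.1% and 44.1%, a little above that of all genes in the first comparison and below it in the others. Under total counts the all-gene median moved to -0.12 in the Fn14 knockout and -0.15 between the knockouts. The splits of the 3 comparisons became 16 higher and 13 lower, 11 and 15, and 10 and 16. Over all genes the share of calls that were higher went from 47.4% to 53.0%, from 50.2% to 36.0% and from 51.9% to 37.3%. All 3 comparisons share libraries, and so are not independent of each other.

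By class, 9 of the 25 tested snoRNA hosts rose and 3 fell in the Fn14alpha knockout. Of the 30 tested microRNA hosts, 3 rose and 12 fell there. Over all genes 42.2% were called in that comparison, 20.0% higher and 22.2% lower. Without Fn14, 7 snoRNA hosts rose and 2 fell, and 7 microRNA hosts rose and 6 fell, beside 52.9% of all genes called. Between the knockouts 2 snoRNA hosts were higher and 7 lower, and 9 microRNA hosts were higher and 5 lower. Over all genes 59.2% were called between the knockouts. The classes were not tested against each other.

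Of the 4 tested long RNAs outside both classes, 2 rose in the Fn14alpha knockout, and 2 rose and 2 fell in the Fn14 knockout. Over all genes 42.2% and 52.9% were called in these comparisons. UCA1, a long RNA known from bladder and other carcinomas, had 1.23, 1.41, 1.43 and 0.66 FPKM in WT, 1.75, 1.05, 1.78 and 1.03 with TWEAK, and 5.26, 5.24, 5.20 and 4.76 in the Fn14alpha knockout. Only 2 reads were counted in the Fn14 knockout libraries (0, 1, 1 and 0), against 310 in WT and 1238 in the Fn14alpha knockout. The knockouts thus lay on opposite sides of WT. The rise in the Fn14alpha knockout was 2.08 ± 0.18 on the log2 scale (edgeR adjusted p = 5.41e-09). In the Fn14 knockout the ratio to WT was 0.00718 (95% exact interval 0.000866 to 0.0262, counting error only; edgeR adjusted p = 3.04e-10). The ratio to the Fn14alpha knockout was 0.00170 (0.000206 to 0.00616; edgeR adjusted p = 3.15e-14). UCA1 (ENSG00000214049) lies at chr19:15828206-15836328 on the plus strand, and the median of its neighbours was 0.07 and -0.11 in the knockouts.

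MEG3 had 6.75, 6.40, 5.31 and 6.96 FPKM in the Fn14alpha knockout, within 0.11 ± 0.12 of WT on the log2 scale (edgeR adjusted p = 0.512). The Fn14 knockout libraries had 1.84, 2.55, 2.21 and 2.73, below all 12 others. MEG3 fell there by 1.19 against WT (SE 0.13, edgeR adjusted p = 1.44e-07) and by 1.30 against the Fn14alpha knockout (SE 0.13, edgeR adjusted p = 3.40e-08).

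NEAT1 is a long RNA of nuclear paraspeckles, and counts per gene do not separate its transcript forms. It was at 8.10, 6.37, 7.27 and 6.07 FPKM in WT and 5.89, 6.67, 6.73 and 7.44 with TWEAK. The knockouts had 8.97, 9.92, 7.12 and 9.85 without Fn14alpha and 8.72, 9.84, 8.76 and 10.95 without Fn14. Every Fn14 knockout library was above every WT library, and the Fn14alpha knockout overlapped WT in replicate 3. NEAT1 rose by 0.34 ± 0.10 in the Fn14alpha knockout (edgeR adjusted p = 0.0125; 0.0505 without its replicate 2) and by 0.58 ± 0.10 in the Fn14 knockout (edgeR adjusted p = 6.54e-05). The difference of 0.24 ± 0.10 between the knockouts (edgeR adjusted p = 0.0478) was lost in 16 of 26 other settings.

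MALAT1, a long RNA of nuclear speckles that is cut near its end by tRNA enzymes, varied widely within each group. The WT libraries had 3.42, 2.01, 3.88 and 2.71 FPKM, the TWEAK libraries 2.60, 3.93, 5.41 and 6.40, the Fn14alpha knockout 2.58, 5.84, 2.65 and 7.97, and the Fn14 knockout 5.11, 3.39, 8.08 and 7.17. All groups overlapped. The Fn14 knockout was called higher by 1.10 ± 0.42 (edgeR adjusted p = 0.0418), and 12 of 26 other settings did not call it. The Fn14alpha knockout differed by 0.63 ± 0.42 (edgeR adjusted p = 0.255). MALAT1 ends in a triple helix in place of a poly(A) tail, and the libraries were selected with oligo(dT).

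Among the microRNA hosts, MIR3142HG (ENSG00000253522, chr5:160438594-160487426, plus strand), which carries miR-146a, a brake on NF-κB signalling, fell in both knockouts. It had 4.27, 2.49, 3.14 and 2.88 FPKM in WT, 2.98, 2.99, 2.84 and 2.93 with TWEAK, 1.79, 2.30, 2.02 and 2.20 without Fn14alpha and 0.23, 0.05, 0.03 and 0.24 without Fn14. The Fn14 knockout stood far below all others with 20 counts in 4 libraries, against 473 in WT. The log2 fold change was -0.65 ± 0.18 in the Fn14alpha knockout (edgeR adjusted p = 0.00532) and -4.39 ± 0.29 in the Fn14 knockout (edgeR adjusted p = 4.79e-12), which lay below the Fn14alpha knockout by a log2 fold change of -3.74 ± 0.30. Its neighbours did not share this, at medians of 0.03 and 0.24.

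MIR222HG (ENSG00000270069, chrX:45745210-45770274, minus strand), host of miR-221 and miR-222, had 11.7, 10.6, 12.7 and 12.2 FPKM in WT and 11.8, 11.4, 12.4 and 11.9 with TWEAK, close to each other. It had 5.77, 7.57, 5.44 and 6.13 in the Fn14alpha knockout and 13.4, 16.9, 12.9 and 15.3 in the Fn14 knockout, on either side of WT. It fell by 0.96 (SE 0.10, edgeR adjusted p = 4.77e-08) in the first and rose by 0.42 ± 0.10 in the second (edgeR adjusted p = 5.79e-04). The median of the neighbours in the Fn14 knockout was 0.49, and relative to it MIR222HG was at -0.06 (edgeR adjusted p = 0.638). The knockouts differed by 1.38 ± 0.10 (edgeR adjusted p = 2.97e-11).

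MIR22HG had 4.40, 4.10, 3.79 and 3.88 FPKM in the Fn14alpha knockout, below every other library, and 5.77, 5.59, 5.16 and 6.48 in the Fn14 knockout, within the WT range apart from the third. It fell by 0.62 in the Fn14alpha knockout (edgeR adjusted p = 8.95e-06, SE 0.09) and was higher in the Fn14 knockout than there by 0.66 ± 0.09 (edgeR adjusted p = 1.91e-06). MIR34AHG and MIR22HG thus rose with TWEAK and fell in the Fn14alpha knockout, and both comparisons use the same WT libraries.

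The 6 hosts with the let-7 seed did not move as a block. MIR4458HG had 1.51, 1.56, 1.65 and 2.07 FPKM in WT and 0.88, 1.02, 1.06 and 1.23 in the Fn14alpha knockout, a log2 fold change of -0.73 ± 0.12 (edgeR adjusted p = 3.23e-05). The Fn14 knockout, at 1.94, 1.95, 1.74 and 1.78, was higher than the Fn14alpha knockout by 0.97 ± 0.12 (edgeR adjusted p = 2.56e-07). MIRLET7A1HG, which holds let-7a, let-7f and let-7d in a row, was at 1.05 ± 0.13 FPKM in WT, 0.81 ± 0.13 without Fn14alpha and 1.40 ± 0.16 without Fn14. In the Fn14 knockout it rose by 0.54 ± 0.15 (edgeR adjusted p = 0.00422), and was 0.95 ± 0.16 above the Fn14alpha knockout. Its fall by 0.41 in the Fn14alpha knockout (edgeR adjusted p = 0.0452) was lost in 14 of 26 other settings, and its neighbours were at -0.37. MIRLET7BHG instead was higher in both knockouts, at 1.15 ± 0.19 and 1.17 ± 0.11 FPKM against 0.79 ± 0.06, by 0.51 ± 0.17 and 0.67 ± 0.16 on the log2 scale (edgeR adjusted p = 0.0166 and 0.00132). With the median of its neighbours removed neither was called (adjusted p = 0.0805 and 0.114). MIR100HG, which also holds miR-100 and miR-125b, was lower in both, at 1.09 ± 0.10 and 1.02 ± 0.06 FPKM against 1.35 ± 0.07, by log2 fold changes of -0.35 ± 0.08 and -0.28 ± 0.08 (edgeR adjusted p = 9.10e-04 and 0.00374). MIRLET7IHG was not called, at 0.31 ± 0.09 FPKM in WT and 0.21 ± 0.06 in the Fn14 knockout. MIR4500HG was near the limit of detection at 0.06 ± 0.02 FPKM in WT and fell by 1.52 in the Fn14 knockout (SE 0.48, edgeR adjusted p = 0.00954; 0.0718 without WT replicate 4 and Fn14 knockout replicate 1 together). LIN28B, whose protein blocks the maturation of let-7, was at 0.21 ± 0.05 FPKM in WT, 0.07 ± 0.01 without Fn14alpha and 0.01 ± 0.01 without Fn14, log2 fold changes of -1.71 and -3.96, both called.

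MIR3677HG rose by 1.42 ± 0.37 in the Fn14 knockout (edgeR adjusted p = 0.00221), from 0.36, 0.79, 0.65 and 0.19 FPKM in WT to 1.57, 1.12, 1.09 and 1.22, without overlap. It overlaps exons of RNPS1 on the other strand over 111 bases, and RNPS1 differed by 0.13 there (edgeR adjusted p = 0.109). MIR17HG, the host of the miR-17-92 cluster of growth-promoting microRNAs, had 1.65, 1.51, 1.39 and 1.62 FPKM in WT and 1.79, 2.34, 1.52 and 2.00 in the Fn14 knockout, and overlapped in replicate 3. It rose there by 0.43 ± 0.15 (edgeR adjusted p = 0.0169), a call of MIR17HG lost in 6 of 26 other settings, among them total counts (0.0764), limma (0.104 and 0.106) and leaving out Fn14 knockout replicate 2 (0.0922) or WT replicate 3 (0.0518). Its neighbours on chromosome 13 had a median of 0.64, and relative to that median it was at -0.20 (edgeR adjusted p = 0.292).

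The remaining microRNA hosts that were called had a mean under 1 FPKM in every group. MIR31HG fell in steps from 0.69 ± 0.02 FPKM in WT to 0.49 ± 0.04 without Fn14alpha and 0.26 ± 0.01 without Fn14, log2 fold changes of -0.54 ± 0.11 and -1.31 ± 0.11 (edgeR adjusted p = 2.12e-04 and 1.00e-09). MIR924HG (0.97) and MIR3936HG (0.94) rose and MIR1915HG (-1.59) and MIR193BHG (-0.91) fell in the Fn14alpha knockout, with log2 fold changes in parentheses. MIR600HG (0.95) and MIR29B2CHG (0.70) rose and MIR3667HG (-2.18) fell in the Fn14 knockout. Between the knockouts, MIR193BHG (1.42), MIR1915HG (1.51) and MIR600HG (1.06) were higher in the Fn14 knockout, and MIR3936HG (-1.41), MIR924HG (-0.84), MIR31HG (-0.76) and MIR3667HG (-1.96) lower. The calls of MIR193BHG against WT and of MIR29B2CHG were lost in 6 and 9 of 26 other settings.

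MIR548XHG had counts in wild-type cells and almost none in either knockout. Its counts were 21, 11, 10 and 11 in WT and 24, 12, 14 and 20 with TWEAK, against 0 in all 4 Fn14alpha knockout libraries and 1, 0, 0 and 0 in the Fn14 knockout. MIR548XHG passed the filter on low counts only through wild-type libraries, the ones where it was high, which limits what its p-values can say. Its level was at least 16.7-fold lower in the Fn14alpha knockout, with a floor of 3 counts over the group (edgeR adjusted p = 6.54e-06). The ratio to WT in the Fn14 knockout was 0.0210 (95% exact interval 0.000522 to 0.122; edgeR adjusted p = 1.18e-05). MIR99AHG, a host of let-7c on the same chromosome, 21, was left out by the filter and had a like pattern: 35 counts in WT, 23 with TWEAK, 0 without Fn14alpha and 1 without Fn14. MIR4527HG had 31, 25, 2 and 0 counts in the same order, and MIR4300HG 12, 14, 0 and 0. These 3 untested RNAs were chosen after their counts were seen. With a floor of 3 counts, MIR99AHG was at least 11.0-fold lower in the Fn14alpha knockout, and MIR4527HG at least 9.28-fold lower in the Fn14 knockout. The bounds for MIR4300HG were smaller, at least 3.79-fold and 3.59-fold lower. MIR3147HG, also untested and chosen in the same way, went the other way, with 3 counts in WT and 11 in the Fn14alpha knockout, a ratio of WT to the knockout of 0.258 (0.0462 to 0.977). The ratio of MIR99AHG in the Fn14 knockout was 0.0318 (0.000783 to 0.189) and that of MIR4527HG in the Fn14alpha knockout 0.0682 (0.00790 to 0.268).

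**Figure D3:**
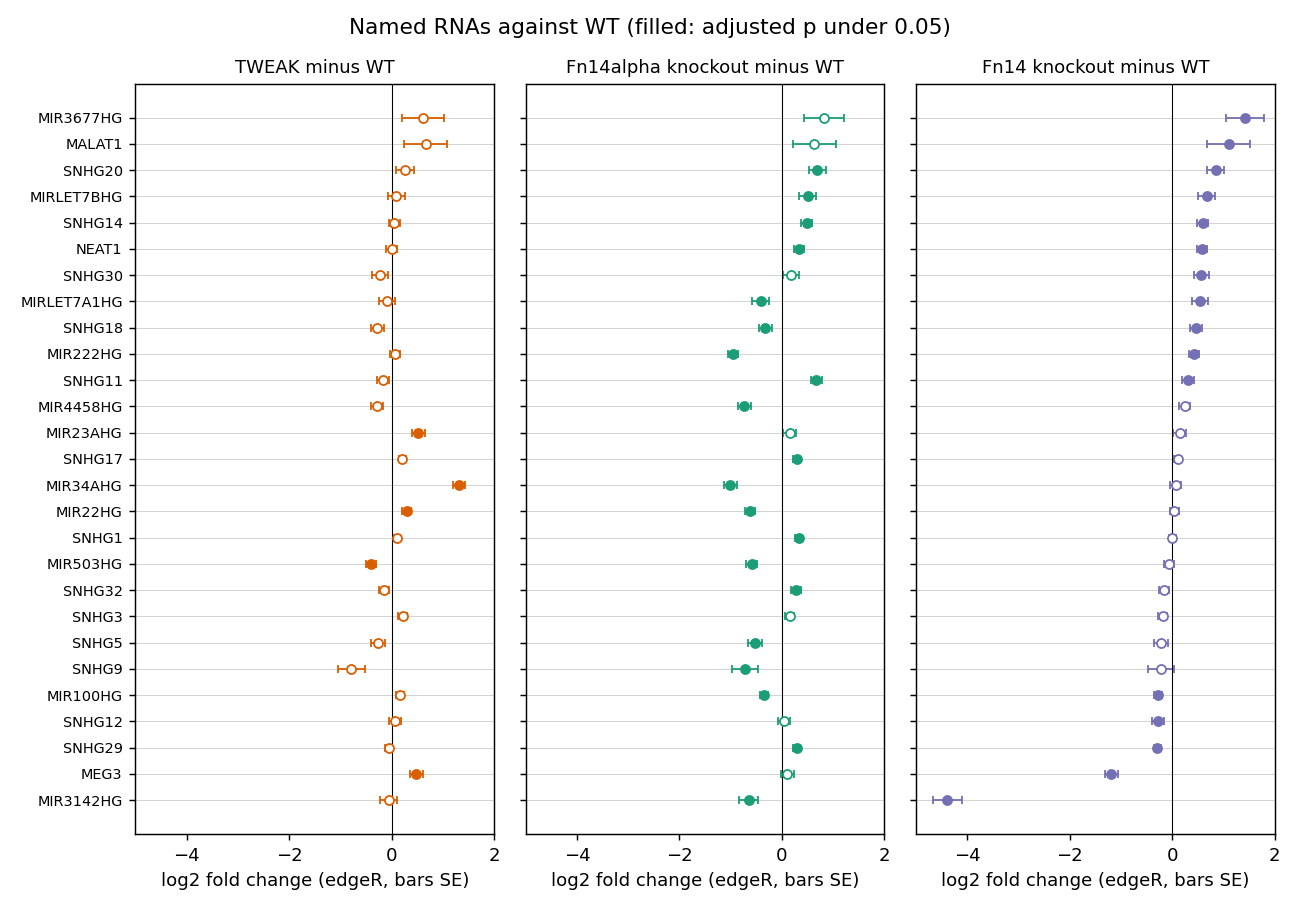
Log2 fold change against WT (x axis, edgeR; bars are SE) of 27 named RNAs in the TWEAK group and both knockouts, ordered by the Fn14 knockout. Filled points passed the test. MIR34AHG is far right with TWEAK and left in the Fn14alpha knockout; UCA1, at 2 counts in the Fn14 knockout, is not drawn.

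Among the snoRNA hosts, SNHG11, SNHG14, SNHG16, SNHG20 and SNHG22 rose in both knockouts. SNHG20 had 0.74, 0.61, 0.64 and 0.44 FPKM in WT, 1.10, 1.26, 0.86 and 0.79 in the Fn14alpha knockout and 1.04, 1.05, 1.05 and 0.88 in the Fn14 knockout, above WT throughout. The log2 fold changes were 0.69 ± 0.16 and 0.84 ± 0.16 (edgeR adjusted p = 0.00156 and 1.15e-04). The gene shares 460 exonic bases with SEC14L1 on the same strand, and SEC14L1 rose by 0.75 and 0.78. SNHG14, the long host of the SNORD115 and SNORD116 clusters on chromosome 15, had 0.75 ± 0.07 FPKM in WT, 1.07 ± 0.09 without Fn14alpha and 1.04 ± 0.21 without Fn14. It rose by 0.48 ± 0.11 and 0.60 ± 0.11 (edgeR adjusted p = 8.89e-04 and 6.21e-05). It lies antisense to UBE3A, with 198 shared exonic bases, and UBE3A differed by 0.14 (not called) and 0.41 (called). SNHG16 was at 0.26 ± 0.09 and 0.27 ± 0.09 (edgeR adjusted p = 0.0183 and 0.0138), and neither was called relative to its neighbours (adjusted p = 0.409 and 0.451). The first call of SNHG16 was also lost without Fn14alpha knockout replicate 1 (0.0643), and the second under total counts (0.157), with limma (0.165 and 0.163) and without Fn14 knockout replicate 3 (0.0663). SNHG22, at 0.18 ± 0.06 FPKM in WT, was at 0.99 and 1.01, calls lost in 8 and 7 of 26 other settings.

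SNHG11 and SNHG1 stood out in the Fn14alpha knockout. SNHG11 had 3.03, 2.58, 2.63 and 2.79 FPKM in WT and 4.10, 4.76, 4.42 and 4.71 there, without overlap, a rise of 0.67 ± 0.11 (edgeR adjusted p = 3.55e-05). The Fn14 knockout had 3.89, 3.45, 2.59 and 2.58, a rise of 0.30 ± 0.12 (edgeR adjusted p = 0.0324) that was lost in 10 of 26 other settings. These include total counts (adjusted p = 0.188), limma (0.251 and 0.258), only the 2 groups (0.0961), and leaving out Fn14 knockout replicate 1 (0.172) or 2 (0.105) or WT replicate 2 (0.0956) or 3 (0.0756). SNHG1 had 33.9, 31.8, 35.9 and 36.3 FPKM in WT and 41.9, 47.4, 41.4 and 45.9 in the Fn14alpha knockout, again without overlap, a rise of 0.32 ± 0.07 (edgeR adjusted p = 3.18e-04). The Fn14 knockout, at 33.9, 33.2, 29.6 and 30.7, was below the Fn14alpha knockout by a log2 fold change of -0.32 ± 0.07 (edgeR adjusted p = 2.07e-04). SNHG17 rose in the Fn14alpha knockout by 0.29 ± 0.07 (edgeR adjusted p = 0.00160), from 3.45 ± 0.18 to 4.31 ± 0.22 FPKM.

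SNHG29 moved in opposite directions. It had 27.7, 27.0, 27.1 and 30.9 FPKM in WT, 32.6, 36.3, 36.2 and 35.8 in the Fn14alpha knockout and 23.5, 21.0, 20.8 and 19.9 in the Fn14 knockout, with no overlap of the 3 groups. The log2 fold changes were 0.29 ± 0.07 and -0.29 ± 0.07 against WT (edgeR adjusted p = 0.00103 and 7.67e-04) and -0.58 ± 0.07 between the knockouts (edgeR adjusted p = 7.24e-08). Neighbours had a median of 0.28 in the Fn14alpha knockout, and relative to it the RNA differed by 0.01 (edgeR adjusted p = 0.918). SNHG32 was at 25.2 ± 2.21, 31.1 ± 3.31 and 20.8 ± 3.43 FPKM in WT, the Fn14alpha knockout and the Fn14 knockout. Its rise of 0.27 in the Fn14alpha knockout (edgeR adjusted p = 0.0284) was not kept relative to its neighbours (-0.10, adjusted p = 0.477). SNHG32 was also not called there without WT replicate 2 (0.0851) or 3 (0.0867), or without Fn14alpha knockout replicate 2 (0.079) or 3 (0.101). Between the knockouts it was lower in the Fn14 knockout (-0.43 ± 0.10, edgeR adjusted p = 5.93e-04), as were SNHG3 (-0.34 ± 0.09, 0.00180), SNHG11 (-0.37 ± 0.11, 0.00615), SNHG12 (-0.33 ± 0.12, 0.0207) and SNHG17 (-0.18 ± 0.07, 0.0269). The calls of SNHG12 and SNHG17 were lost in 4 and 5 of 26 other settings, each without Fn14 knockout replicate 3 (adjusted p = 0.0934 and 0.0524) or 4 (0.0503 and 0.0760), SNHG12 also without Fn14alpha knockout replicate 4 (0.0914), and SNHG17 also without Fn14alpha knockout replicate 2 (0.0996) or Fn14 knockout replicate 2 (0.0681). SNHG12 against WT (-0.28 ± 0.12, edgeR adjusted p = 0.0485) was lost in 13 of 26 other settings.

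SNHG18 and SNHG30 were highest in the Fn14 knockout. SNHG18 had 5.88, 6.64, 5.97 and 5.11 FPKM in WT, 4.39, 6.18, 4.18 and 4.57 in the Fn14alpha knockout and 7.95, 7.52, 7.24 and 7.24 in the Fn14 knockout. The last group was above all WT libraries, and the middle one overlapped WT in replicate 2. SNHG18 rose in the Fn14 knockout by 0.46 ± 0.12 (edgeR adjusted p = 0.00234) and was above the Fn14alpha knockout by 0.78 ± 0.12 (edgeR adjusted p = 7.60e-06). Its fall by 0.32 in the Fn14alpha knockout (edgeR adjusted p = 0.0417) was lost in 10 of 26 other settings. SNHG30 had 3.02 ± 0.45 FPKM in WT and 4.10 ± 0.61 in the Fn14 knockout, a rise of 0.56 ± 0.15 (edgeR adjusted p = 0.00227). Neighbours were at 0.41, and relative to them it was not called (adjusted p = 0.429). It was also above the Fn14alpha knockout by 0.39 ± 0.15 (edgeR adjusted p = 0.0248), a call lost in 8 of 26 other settings.

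SNHG5 and SNHG9 fell in the Fn14alpha knockout. SNHG5 had 4.71, 4.88, 4.48 and 6.09 FPKM in WT and 3.20, 3.86, 4.00 and 3.30 there, without overlap, a log2 fold change of -0.52 ± 0.14 (edgeR adjusted p = 0.00525). SNHG9, a short gene beside the ribosomal protein gene RPS2, had 3.88 ± 0.98 and 2.42 ± 0.55 FPKM, overlapping. Its fall by 0.72 (SE 0.26, edgeR adjusted p = 0.0258) was lost in 6 of 26 other settings. Among them were leaving out WT replicate 4 (adjusted p = 0.119) or Fn14alpha knockout replicate 1 (0.069), 3 (0.0518) or 4 (0.0782). It was also lost without WT replicate 4 and Fn14 knockout replicate 1 together (0.0727) and relative to the neighbours (0.149). For both SNHG5 and SNHG9, WT replicate 4 was the highest WT library. GAS5, a growth-arrest transcript that hosts box C/D snoRNAs, had 18.8, 15.7, 18.4 and 20.6 FPKM in WT, 17.7, 17.2, 16.7 and 16.2 with TWEAK, 19.02, 25.8, 21.9 and 20.9 without Fn14alpha and 23.7, 19.01, 16.6 and 18.5 without Fn14. The groups overlapped, and the differences of 0.22 ± 0.10 and 0.20 ± 0.10 from WT were not called (edgeR adjusted p = 0.0866 and 0.107). The call rested on the setting: GAS5 was called in 7 of 26 other settings in the Fn14alpha knockout, and in 4 in the Fn14 knockout. Without WT replicate 4 it was called higher in both (adjusted p = 0.0365 and 0.0415), as it was without Fn14alpha knockout replicate 1 (0.0393) or Fn14 knockout replicate 1 (0.0284) in the first and without Fn14 knockout replicate 3 (0.0403) in the second. Relative to its neighbours GAS5 was higher in the Fn14alpha knockout (0.31, adjusted p = 0.0225) and lower in the Fn14 knockout (-0.29, adjusted p = 0.0283). The mean log2 CPM of the 25 tested snoRNA hosts was 4.02 in WT replicate 4, 4.20 in Fn14alpha knockout replicate 2 and 4.26 in Fn14 knockout replicate 1, against 3.86 to 4.01 in the other 13 libraries. Their part in the other snoRNA host results was tested only by leaving libraries out.

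**Figure D4:**
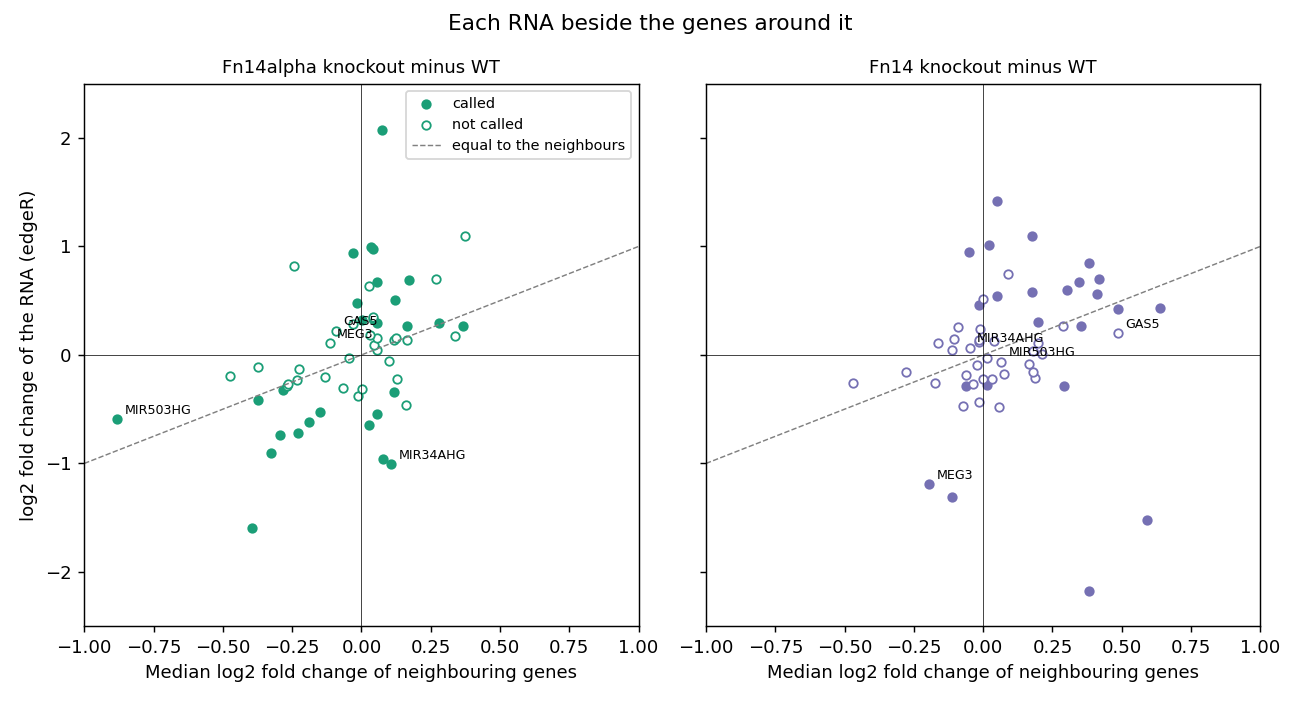
Log2 fold change of each tested RNA (y axis) beside the median log2 fold change of up to 50 tested genes on each side (x axis) in both knockouts. Filled points were called, the dashed line marks equal values, and 4 values below the axis (UCA1 and MIR3142HG in the Fn14 knockout, MIR548XHG in both) are not drawn. MIR503HG lies left and above the line in the Fn14alpha knockout.

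Removing the median of the neighbouring genes left 22 RNAs called in the Fn14alpha knockout, 20 of them among the 29, and 21 in the Fn14 knockout, 17 of them among the 26. Between the knockouts it left 26, of which 22 were among the 26 called before. Without WT replicate 4 and Fn14 knockout replicate 1, 26 were called in the Fn14alpha knockout, 24 of them among the 29, 26 in the Fn14 knockout, 21 of them among the 26, and 5 with TWEAK, the same 5. In all, 41 of the 59 RNAs were called in at least 1 comparison. The 18 called in none were GAS5, SNHG4, SNHG6, SNHG7, SNHG8, SNHG10, SNHG15, SNHG19, SNHG21, SNHG26, MIR30DHG, MIR137HG, MIR155HG, MIR210HG, MIR762HG, MIR4453HG, MIR4733HG and MIRLET7IHG.

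The enzymes that make small RNAs were described beside their hosts. Of 18 genes of microRNA biogenesis, 1 rose with TWEAK, AGO2 by 0.44, and none fell (all genes: 6.87% called). Without Fn14alpha, 7 rose and 3 fell (all genes: 42.2% called), with XPO5, which exports hairpins from the nucleus, higher by 0.76. Without Fn14, 7 rose and 3 fell (all genes: 52.9% called), with DGCR8, the partner of Drosha, higher by 0.59 and DICER1 lower (-0.35). DROSHA was not called in either, at 32.4 ± 2.13 FPKM in WT, 31.4 ± 2.47 and 30.6 ± 2.96.

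Of 21 genes of snoRNA-protein complexes and their assembly, 2 rose with TWEAK (NOLC1 by 0.31 and ZNHIT6 by 0.24), beside 6.87% of all genes called. Without Fn14alpha 3 rose and 6 fell, beside 42.2% of all genes called, and without Fn14 11 rose and 2 fell, beside 52.9%. NOP56, a core protein of box C/D complexes, stood at 40.5 ± 1.02 FPKM in WT, 56.8 ± 2.59 without Fn14alpha and 74.0 ± 2.37 without Fn14. GAR1, of the H/ACA complexes, stood at 22.6 ± 2.90, 17.6 ± 0.52 and 48.3 ± 6.16. The list medians were -0.05 and 0.30, against 0.01 and -0.01 over all genes.

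Nonsense-mediated decay degrades many spliced snoRNA hosts. Of 17 of its factors, none was called with TWEAK by edgeR or limma, beside 6.87% of all genes with edgeR. With edgeR 4 were at an unadjusted p under 0.05, and DESeq2 called SMG1. In the Fn14alpha knockout 5 of the 17 rose and 3 fell, beside 42.2% of all genes called. In the Fn14 knockout 8 rose and 4 fell, beside 52.9% of all genes called. UPF3A stood at 7.84 ± 0.62 FPKM in WT and 21.8 ± 1.25 in the Fn14 knockout. Of 17 proteins of paraspeckles and speckles, edgeR and limma called none with TWEAK, beside 6.87% of all genes with edgeR. Here 4 were at an unadjusted p under 0.05 with edgeR, and DESeq2 called RNPS1. In the Fn14alpha knockout 1 rose and 3 fell, with NONO, a core paraspeckle protein, lower (-0.77), and in the Fn14 knockout 7 rose and 1 fell, beside the same 42.2% and 52.9% of all genes.

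Other long RNAs with small RNAs inside fall outside the symbol rule, and 12 of 16 were tested. PVT1, host of miR-1204 and its relatives, rose with TWEAK by 0.51. KCNQ1OT1 was the only call in the Fn14alpha knockout (1.17), beside 42.2% of all genes. Of the 12, 6 rose and 3 fell in the Fn14 knockout, beside 52.9% of all genes called. ZFAS1, a snoRNA host, dropped from 13.6 ± 1.72 FPKM in WT to 5.74 ± 0.70 (-1.12), while DLEU2, host of miR-15a and miR-16, rose from 1.86 ± 0.22 to 3.62 ± 0.29 FPKM (1.07).

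Of 85 ribosomal protein genes, which share a pyrimidine-rich start with many snoRNA hosts, none was called with TWEAK by edgeR, DESeq2 or limma. There were 5 at an unadjusted p under 0.05 with edgeR, which called 6.87% of all genes. In the Fn14alpha knockout 5 rose and 19 fell, with a median of -0.06, and in the Fn14 knockout 14 rose and 22 fell, with a median of -0.11, beside 42.2% and 52.9% of all genes called. The snoRNA hosts had medians of 0.17 and 0.01 in the same comparisons. The difference between these lists was not tested.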

How the data were processed

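The deposited table gives raw read counts of 61806 genes in each library, not normalized. Its FPKM values were made by the authors, per the file headers, and equal the count divided by the exonic size and the summed counts of that library. The submitters' processing notes name HTSeq 0.6.1, HISAT2 2.0.1, cutadapt 1.9.1, FastQC 0.10.1, DESeq2 and the builds GRCh38.p13 and hg38, without their roles. The sources used here give neither strand setting nor annotation release.

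Counts were tested with edgeR 4.0.16 (R 4.3.3): TMM scaling, filterByExpr by group, robust quasi-likelihood fit with 1 mean per group over all 16 libraries, two-sided. P-values were adjusted by Benjamini-Hochberg over the 16029 genes that passed the filter, with calls at 0.05. The standard error is the size of the log2 fold change divided by the square root of F. Levels are mean ± SD of the deposited FPKM, n = 4. Counting intervals and floors (3 counts) use library totals times TMM factors and cover counting error only. The fitting code was tested on simulated data.

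Alternatives were DESeq2 1.42.0, limma 3.58.1 on log2(FPKM + 1) or log2(FPKM + 0.1), other scalings, no filter, only the 2 groups, the replicate number as a block, each library left out, WT replicate 4 with Fn14 knockout replicate 1 left out, and an offset for the median of neighbouring genes (up to 50 of at least 2 log2 CPM on each side). Chi-square per degree of freedom of 24 replicate pairs was 2.30 to 39.0, so no library was a copy. GENCODE v29 gave exonic overlaps: 107 of the 108 RNAs were found, 44 with the same ends, and 22 tested RNAs overlapped exons of another row of at least 100 counts, 16 of them antisense.

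The RNAs and gene lists were chosen with earlier results of these data known. Named with values are MALAT1, NEAT1, UCA1, H19, MEG3 and GAS5, in each comparison up to 8 called RNAs in each direction with at least 1 FPKM in a group, and the 10 highest. Other called RNAs were added after their values were seen. Plots used Python 3.11.15, pandas 2.3.3, numpy 2.4.6 and matplotlib 3.10.9.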

Additional observations from a re-analysis of the deposited data

Results flagged for a closer look

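Each group of 4 libraries was checked for a library far from the other 3, by the gap to its nearest neighbour as a share of the range (Dixon's limit at 95% for 4 values). Of 168 groups of 42 RNAs, 13 passed the limit, and chance gives about 1 in 20. In WT, replicate 1 was high for MIR548XHG (0.54 FPKM) and replicate 4 for MIRLET7BHG (0.88). With TWEAK, replicate 3 was high for SNHG14 (0.79). In the Fn14alpha knockout, replicate 1 was low for SNHG29 (32.6 FPKM), replicate 3 for MIR100HG (0.94) and replicate 4 for UCA1 (4.76). In the Fn14 knockout, replicate 1 was high for SNHG5 (5.57), SNHG9 (4.90), MIR3667HG (0.04) and MIR548XHG (0.02), replicate 3 for SNHG16 (5.66) and replicate 4 for MIR4500HG (0.03), and replicate 4 was low for SNHG20 (0.88). Fn14 knockout replicate 1 thus held 4 of the 13. The values 0.02, 0.03 and 0.04 FPKM are a few counts above the lowest.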

How the results depend on the processing

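Of 96 named results, 56 kept direction and call in all 26 alternatives; over 2491 recomputed values 2279 were unchanged in this sense, 176 lost a call, 11 gained one and 25 turned sign. Leaving out a library gave 3 to 7 RNAs called with TWEAK against 5 (3 without TWEAK replicate 3); the other counts stayed within 1.5 times. With the replicate block 4, 28, 25 and 25 RNAs were called with TWEAK, in the Fn14alpha knockout, in the Fn14 knockout and between the knockouts; same-numbered libraries had correlations of -0.23 to 0.11, so the numbers do not pair them. The signs that turned were mostly near 0. NEAT1 with TWEAK was -0.057 under total counts, -0.0041 without a filter, -0.0044 with the replicate block, -0.046 and -0.052 with limma (pseudocounts 1 and 0.1), -0.054 with WT replicate 4 and Fn14 knockout replicate 1 both left out, -0.0013 relative to its neighbours, and -0.054 to 0.078 with a library left out. GAS5 with TWEAK was 0.0075 without those 2 libraries and -0.13 to 0.0070 with a library left out, and GAS5 between the knockouts -0.13 to 0.069. MEG3 in the Fn14alpha knockout was -0.012 without the same 2 libraries and -0.012 to 0.19 with a library left out. Relative to the neighbours, MIR503HG was 0.29 in the Fn14alpha knockout and -0.40 between the knockouts, GAS5 -0.29 in the Fn14 knockout (called, adjusted p = 0.0283) and -0.55 between the knockouts (called, 0.000117), SNHG32 -0.097 in the Fn14alpha knockout, and SNHG16 -0.088, MIR17HG -0.20 and MIR222HG -0.062 in the Fn14 knockout. The cause was not tested. Depth limited the 36 RNAs with 1 to 103 counts, which were not tested.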
